A study of Drosophila melanogaster with 14 samples.

Results

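The small heat shock proteins of *Drosophila* were followed through 14 RNA-seq samples of whole embryos aged 10 to 15 h. The members were the 8 genes *Hsp22*, *Hsp23*, *Hsp26*, *Hsp27*, *Hsp67Ba*, *Hsp67Bc*, *l(2)efl* and *CG7409*, chosen by name out of the 17493 genes counted. All 8 have a row of counts, and 6 of them passed the filter on low counts in the *sggisoA* experiment and 7 in the *sggisoB* experiment. *Hsp22* passed in neither and *Hsp67Ba* missed the filter in *sggisoA*.

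*sgg* (*shaggy*) encodes the fly glycogen synthase kinase-3, a kinase of the Wnt pathway, and the study asked what the loss of single Sgg isoforms does to transcription. The *sggisoA* nulls (labelled sgg-A null, 3 samples) came from a homozygous stock that lacks the exon specific to Sgg-PA, so that neither mother nor embryo could supply that isoform. Their controls (3 samples) were embryos of the attP40 progenitor line THattP40, which carries a *nos*-Cas9 source, and neither group was sorted. The *sggisoB* zygotic nulls (labelled sgg-B null, 4 samples) were non-fluorescent embryos from *sggisoB*/FM7-GFP mothers and FM7-GFP/Y fathers, which leaves hemizygous sons that had a maternal supply of the isoform. Their controls (4 samples, also attP40) were non-fluorescent embryos of a parallel cross in which the mothers carried an unedited X chromosome over FM7-GFP. In both mutants the DsRED marker used to select the deletion had been excised with Cre, and the founders had been outcrossed to a *white* strain. Each sample pooled embryos, and whether the RNA of a mutant came from more than a single line was not given in the sources used here.

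Small heat shock proteins are chaperones that share an alpha-crystallin domain, assemble into oligomers and hold unfolding proteins without using ATP until the Hsp70 machinery can refold them. Most fly members lie together in a cluster at cytological position 67B, where Heat shock factor (Hsf) induces them on heat shock and where ecdysone and developmental signals switch single members on without stress. In ovaries *Hsp26*, *Hsp27* and the Hsp90 gene *Hsp83* are transcribed by nurse cells in the absence of heat, and their RNA is passed to the egg.

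On the Release 6 assembly (Ensembl annotation BDGP6.54) 6 members lay on chromosome arm 3L between positions 9371511 and 9385694, a stretch of 14184 bases. In order along the arm these were *Hsp67Bc* (chr3L:9371511-9372497, minus strand, a single exon), *Hsp22* (chr3L:9372931-9374964, plus strand), *Hsp26* (chr3L:9376418-9377427, minus strand), *Hsp67Ba* (chr3L:9377802-9379534, minus strand), *Hsp23* (chr3L:9381882-9382765, plus strand) and *Hsp27* (chr3L:9384063-9385694, plus strand). The stretch also holds or touches 4 other genes, *CG4456*, *CG4461*, *asRNA:CR43481* and *CR43483*. The remaining members lay elsewhere, *CG7409* on the same arm (chr3L:7754409-7755168, plus strand) within an intron of *CG32373*, and *l(2)efl* at chr2R:23684651-23685543 on the minus strand.

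**Figure D1:**
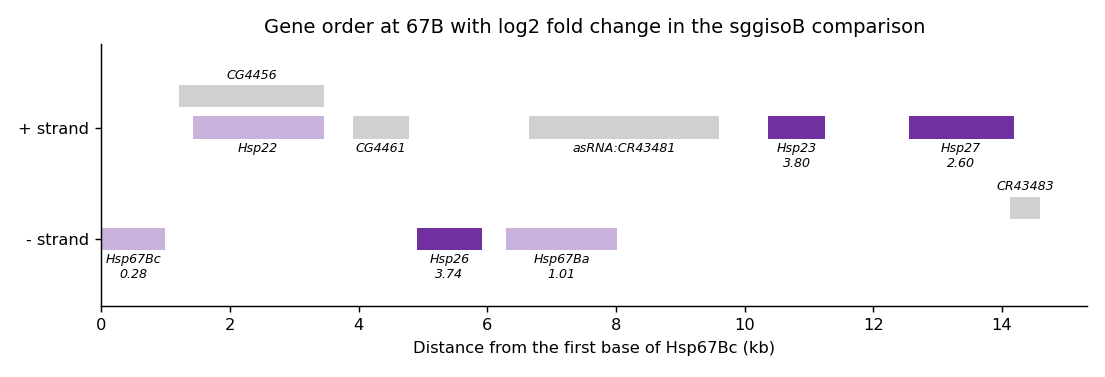
Gene order at 67B. Bars show each gene by its distance in kb from the first base of Hsp67Bc (x axis) and by strand (y axis). Purple bars are members, dark where the gene was called in the sggisoB comparison and light where it was not, and grey bars are other genes. The numbers are log2 fold changes, sggisoB zygotic null minus isoB control, with the called genes Hsp26, Hsp23 and Hsp27 at 3.74, 3.80 and 2.60.

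Gene overlaps in this crowded stretch bear on the counts, since reads were counted without regard to strand and a read touching more than 1 gene was dropped. *Hsp22*, the mitochondrial member, had 0 counts in all 14 samples. All 1900 of its exon bases are shared with *CG4456*, itself at 0 to 2 counts per sample, so its zero is no measurement of its level. In *Hsp67Ba* 75.9% of the 1733 exon bases are shared with the antisense gene *asRNA:CR43481*. Reads touching the shared bases would be lost to both genes, which leaves 417 bases for the counts of *Hsp67Ba*. *Hsp27* shared 49 bases and *l(2)efl* 75 bases with a neighbour, and *Hsp23*, *Hsp26*, *Hsp67Bc* and *CG7409* shared none. A gene overlap in the annotation read here need not be the same as in the earlier release used for counting.

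The libraries held 8082962 to 25124367 counts, the lowest totals being in the isoA controls. Levels are in CPM, the usual per-library scale on which a count is divided by the size of its library, with sizes adjusted by TMM in each experiment. Comparisons used edgeR's quasi-likelihood test with Benjamini-Hochberg adjustment over every gene kept, and genes were called where the adjusted p did not exceed 0.05 and the log2 fold change, upwards or downwards, reached 0.7. Errors are standard errors (SE) of the fit or standard deviations (SD) over samples. Exact permutation tests were two-sided on log2 CPM and can give no p below 0.0286 for 4 samples against 4 or 0.1 for 3 against 3. The study called the *sggisoA* samples biological replicates. For the *sggisoB* samples the origin of the replicates was not given, and their p-values measure the spread between these samples, which may be technical. In whole embryos fewer cells of a type and less RNA per cell cannot be told apart.

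In the *sggisoB* zygotic nulls the members *Hsp23*, *Hsp26* and *Hsp27* rose and *CG7409* fell, so that 4 of the 7 members tested were called, against 4.56% of the 10693 genes tested. Of all genes 0.982% were called higher and 3.58% lower. Nulls and controls did not overlap for 5 of the 7 members and for 20.3% of all genes. The median log2 fold change of the 7 members was 1.01, beside -0.01 over all genes. That median was the value of *Hsp67Ba* alone and describes no shift of the whole family. *Hsp23*, *Hsp26* and *Hsp27* lay at 2.60 to 3.80, and *Hsp67Bc*, *l(2)efl* and *CG7409* at -1.42 to 0.28. The members not called were *Hsp67Ba*, *Hsp67Bc* and *l(2)efl*.

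*Hsp23*, a cytosolic member, stood at 439, 229, 193 and 310 CPM in nulls 1 to 4 and at 25.1, 16.9, 17.5 and 24.1 CPM in controls 1 to 4. Every null was thus several times above every control, and null 1 was the highest. The change was 13.9-fold (95% interval 9.15 to 21.2; log2 3.80 ± 0.27 SE, edgeR adjusted p = 1.02e-04, exact permutation p = 0.0286), and *Hsp23* ranked 10th by rise among the 10693 genes, with *Hsp26* ranked 11th.

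*Hsp26*, also cytosolic and among the most heat-inducible members, reached 488, 228, 188 and 270 CPM in the nulls against 17.0, 11.2, 48.8 and 9.86 CPM in the controls. The groups did not overlap, but control 3 lay well above the other controls. The rise was 13.3-fold with a wider interval, 5.79 to 30.6 (log2 3.74 ± 0.54 SE, edgeR adjusted p = 0.00575, exact permutation p = 0.0286). Without control 3 the log2 fold change was 4.52.

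*Hsp27*, which can be found in the nucleus, was at 299, 158, 144 and 201 CPM in the nulls and at 41.5, 17.3, 47.8 and 24.7 CPM in the controls. Here too all nulls exceeded all controls. The rise was 6.05-fold (95% interval 3.60 to 10.2; log2 2.60 ± 0.34 SE, edgeR adjusted p = 0.00369, exact permutation p = 0.0286).

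*Hsp67Ba*, whose protein of 445 residues is the longest of the members, gave 29, 27, 27 and 31 counts in the nulls, or 2.01, 1.09, 1.13 and 1.24 CPM. The controls gave 26, 4, 15 and 11 counts, or 1.07, 0.364, 0.658 and 0.482 CPM. The lowest null was only just above the highest control, control 1. The log2 fold change was 1.01 ± 0.36 SE and was not called (edgeR adjusted p = 0.0927, exact permutation p = 0.0286). Without control 1 it was called (log2 1.37, edgeR adjusted p = 0.0470). Its antisense partner *asRNA:CR43481*, too low for the filter, had 10, 3, 4 and 21 counts in the nulls and 1, 0, 1 and 2 in the controls, and was not called in the fit without the filter (edgeR adjusted p = 0.0522).

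*Hsp67Bc*, the fly counterpart of the mammalian HSPB8 that works with the BAG3 orthologue Starvin in the autophagic disposal of proteins, was at 70.2, 55.8, 45.3 and 58.9 CPM in the nulls and at 40.0, 48.2, 49.1 and 52.9 CPM in the controls. The groups overlapped. The log2 fold change was 0.28 ± 0.14 SE with a 95% interval of -0.03 to 0.58 (edgeR adjusted p = 0.199). Although *Hsp67Bc* lies in the same cluster, the upper end of its interval was below the lower ends of those of *Hsp23*, *Hsp26* and *Hsp27*.

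*l(2)efl*, an essential gene related to the alpha-crystallins of vertebrates, was at 67.1, 57.3, 59.8 and 69.5 CPM in the nulls and at 61.4, 95.5, 60.4 and 73.9 CPM in the controls. The nulls lay within or below the control range, which was stretched by control 2. The log2 fold change was -0.20 ± 0.15 SE with a 95% interval of -0.52 to 0.13 (edgeR adjusted p = 0.382).

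*CG7409*, a member known mainly from its sequence, went the other way. The nulls gave 15, 26, 16 and 31 counts, or 1.04, 1.05, 0.670 and 1.24 CPM, and the controls 56, 36, 81 and 38 counts, or 2.30, 3.28, 3.55 and 1.67 CPM. All nulls were below all controls. The level was 2.67-fold lower (log2 -1.42 ± 0.30 SE, edgeR adjusted p = 0.0200, exact permutation p = 0.0286). This call rested on few counts and was lost without null 3, control 2 or control 3 (edgeR adjusted p = 0.0530, 0.0622 and 0.0700).

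**Figure D2:**
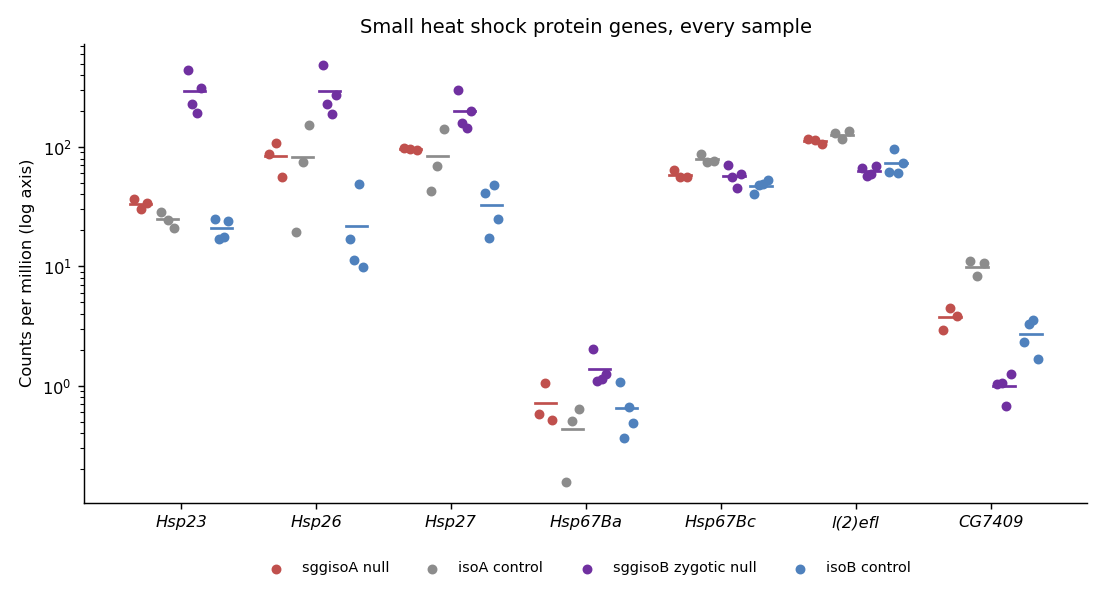
Level of the 7 members with counts in every sample. Points are single samples and bars are group means, in CPM on a log axis (y axis), by gene (x axis) and condition (colour). The sggisoB zygotic nulls sit between 188 and 488 CPM for Hsp23 and Hsp26, above all other samples, while CG7409 is lowest in the same embryos at 0.670 to 1.24 CPM.

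Within the *sggisoB* nulls the induced members shared an order of samples. Null 1 was highest and null 3 lowest for *Hsp23*, *Hsp26*, *Hsp27* and also *Hsp67Bc*, which was not called, with null 2 below null 4 in each. How many of all genes have this order of nulls was not counted, so it is not shown to be particular to these members. The 8 genes together made up 1367, 731, 632 and 912 CPM in nulls 1 to 4 and 188 to 228 CPM in the controls. Null 1 also held the fewest counts of its group, 14378062, and the part of depth in its level was not tested. Without null 1 the log2 fold changes were 3.54 for *Hsp23*, 3.38 for *Hsp26* and 2.34 for *Hsp27*, and all remained called.

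*Hsp23*, *Hsp26* and *Hsp27* took similar shares of the family in the 4 nulls although its sum varied 2.16-fold. *Hsp23* made up 30.6 to 34.0% of the family's counts, *Hsp26* 29.6 to 35.7% and *Hsp27* 21.6 to 22.8%. Relative to their size the other shares varied more, from 5.14 to 7.64% for *Hsp67Bc*, 4.91 to 9.46% for *l(2)efl* and 0.0761 to 0.143% for *CG7409*. Since *Hsp23*, *Hsp26* and *Hsp27* fill most of the sum in the nulls, the share of a gene that does not follow them must shrink as it grows. The share of *CG7409* also rests on 15 to 31 counts per sample. In the controls *l(2)efl* was the largest part at 26.5 to 49.6%, *Hsp67Bc* gave 21.2 to 28.2%, and *Hsp26* ranged from 5.26 to 21.4%. The ratio of *Hsp26* to *Hsp27* counts was 1.30 to 1.63 in the nulls and 0.399 to 1.02 in the controls, without overlap.

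**Figure D3:**
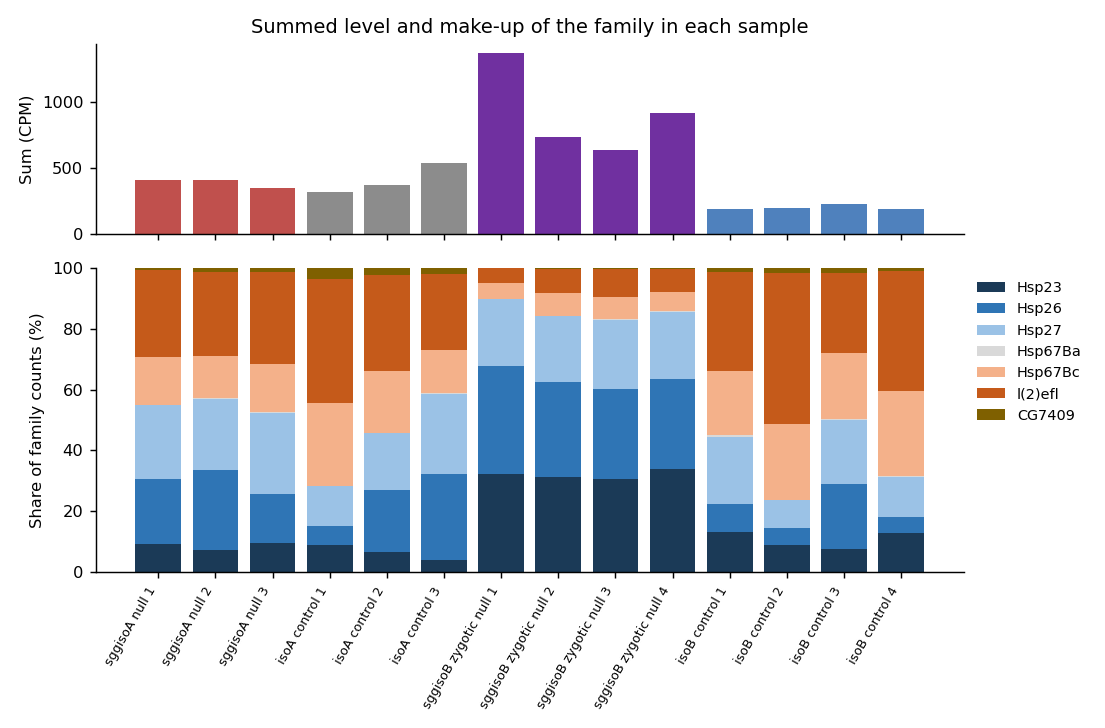
Summed level and make-up of the small heat shock protein genes. The upper bars give the sum of the 8 members in CPM for each of the 14 samples, and the lower bars divide the family's counts by gene in percent (Hsp22 had none). In the 4 sggisoB zygotic nulls the sum is 632 to 1367 CPM and Hsp23, Hsp26 and Hsp27 fill most of each bar in similar shares, whereas in their controls l(2)efl takes 26.5 to 49.6%.

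Per kilobase of unshared exon, the scale on which genes can be compared with each other, the order of the members changed. In the isoB controls *l(2)efl* had the highest mean at 109 CPM per kb, followed by *Hsp67Bc* at 48.1, *Hsp23* at 23.6, *Hsp26* at 21.5 and *Hsp27* at 20.7, with *CG7409* at 3.55 and *Hsp67Ba* at 1.54. The ranges of *Hsp23*, *Hsp26* and *Hsp27* overlapped. In the nulls *Hsp23* at 331 and *Hsp26* at 291 CPM per kb came first, with overlapping ranges, ahead of *Hsp27* at 127 and *l(2)efl* at 95.2.

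In the *sggisoA* nulls the same cluster genes were not called. Among the 6 members tested only *CG7409* was called, against 0.971% of the 10397 genes tested (0.683% called lower). The members' median log2 fold change was -0.08, beside -0.01 over all genes. At an unadjusted p under 0.05 there were 3 members, *Hsp23*, *Hsp67Bc* and *CG7409*, where 18.9% of all genes passed that mark, and the groups of these 3 did not overlap, as was so for 24.8% of all genes.

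*CG7409* was at 2.94, 4.46 and 3.80 CPM in nulls 1 to 3 (56, 85 and 59 counts) and at 11.0, 8.21 and 10.6 CPM in controls 1 to 3 (141, 65 and 116 counts). All nulls were below all controls. The level was 2.66-fold lower (log2 -1.41 ± 0.24 SE, edgeR adjusted p = 0.0412, exact permutation p = 0.1). The call sat close to the threshold and was lost on leaving out control 1 or any single null, where the edgeR adjusted p ranged from 0.114 to 0.218.

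*Hsp23* was slightly higher in these nulls, at 36.8, 30.1 and 33.7 CPM against 28.8, 24.5 and 20.9 CPM. The groups did not overlap, but the log2 fold change of 0.44 ± 0.16 SE was not called (edgeR adjusted p = 0.205). *Hsp67Bc* was lower, at 63.6, 56.4 and 55.8 CPM against 87.3, 74.5 and 75.9 CPM, again without overlap and without a call (log2 -0.44 ± 0.12 SE, edgeR adjusted p = 0.139). *l(2)efl* was at 116, 114 and 106 CPM in the nulls and at 130, 116 and 135 CPM in the controls. Null 1 and control 2 were practically equal, so that the groups overlapped, and the log2 fold change was -0.18 ± 0.11 SE (edgeR adjusted p = 0.397).

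For *Hsp26* and *Hsp27* the isoA controls differed widely among themselves. *Hsp26* was at 88.1, 107 and 55.9 CPM in the nulls and at 19.4, 74.2 and 154 CPM in the controls, a 7.94-fold range within the control group that took in all nulls. The log2 fold change was 0.02 ± 0.59 SE with a 95% interval of -1.33 to 1.38 (edgeR adjusted p = 0.987). It was -0.45 without control 1 and 0.87 without control 3. *Hsp27* was at 98.3, 96.3 and 93.9 CPM in the nulls, nearly identical to each other, and at 42.5, 69.6 and 142 CPM in the controls (log2 0.18 ± 0.36 SE, 95% interval -0.65 to 1.02, edgeR adjusted p = 0.807). Without control 3 the latter was 0.79 and without control 1 it was -0.15. The upper ends of these intervals were 2.60-fold for *Hsp26* and 2.02-fold for *Hsp27*.

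*Hsp67Ba* was below the filter in *sggisoA*, with 11, 20 and 8 counts in the nulls and 2, 4 and 7 in the controls. These were 0.578, 1.05 and 0.516 CPM against 0.156, 0.505 and 0.637 CPM, and the groups overlapped. In a fit without the filter the log2 fold change was 0.76 ± 0.67 SE (edgeR adjusted p = 0.616).

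**Figure D4:**
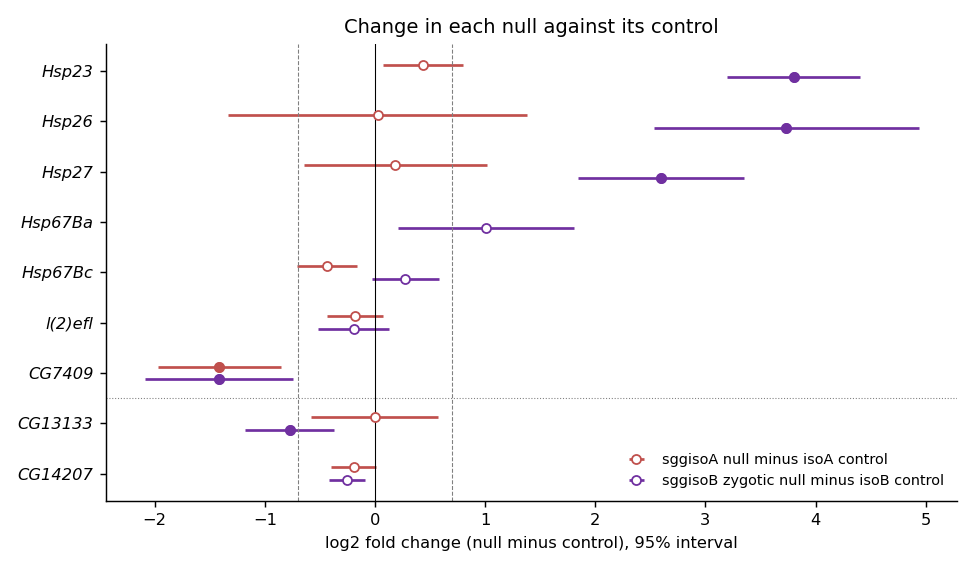
Change of each gene in each null against its own control. Points are log2 fold changes (x axis) with 95% intervals from edgeR, filled where the gene was called, for 7 members and, under the dotted line, 2 other alpha-crystallin genes (y axis). Dashed lines mark 0.7 in either direction. Hsp23, Hsp26 and Hsp27 lie at 3.80, 3.74 and 2.60 in sggisoB and at 0.44, 0.02 and 0.18 in sggisoA, while CG7409 lies at -1.42 and -1.41.

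The difference between both experiments was tested by an interaction term over all 14 samples, in which 3 of 7 members passed, against 2.54% of 11021 genes. The effect on *Hsp23* was larger in *sggisoB* by 3.39 ± 0.36 SE on the log2 scale, on *Hsp26* by 3.74 ± 0.89 SE and on *Hsp27* by 2.44 ± 0.55 SE (edgeR adjusted p = 1.93e-04, 0.0419 and 0.0351). For *Hsp67Bc* the difference of 0.74 ± 0.20 SE just missed (edgeR adjusted p = 0.0597). *Hsp23* passed whichever sample was left out. *Hsp27* no longer passed on leaving out any 1 of the *sggisoA* nulls, isoA control 3, *sggisoB* null 1 or isoB control 2 or 4. *Hsp26* was lost with the same omissions and also without *sggisoB* null 2 or isoB control 1. Their edgeR adjusted p reached 0.104 and 0.119 without *sggisoA* null 3. For *CG7409* the effects differed by 0.02 with a 95% interval of -1.07 to 1.11, and for *l(2)efl* by 0.01 with an interval of -0.41 to 0.44. Intervals of this width do not show that the effects were equal. For *Hsp67Ba* the difference was 0.27 ± 0.71 SE (edgeR adjusted p = 0.846).

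The control groups were not alike for this family. Against the isoA controls 5 of 7 members were called lower in the isoB controls, where 6.46% of 11021 genes were called lower and 9.35% in either direction. These were *Hsp26* (log2 -1.88 ± 0.62 SE), *CG7409* (-1.87 ± 0.28), *Hsp27* (-1.33 ± 0.39), *l(2)efl* (-0.79 ± 0.14) and *Hsp67Bc* (-0.72 ± 0.14), with edgeR adjusted p of 0.0381, 8.29e-04, 0.0231, 0.00246 and 0.00355. *Hsp23* and *Hsp67Ba* were not called (edgeR adjusted p = 0.543 and 0.364). Without isoA control 3 neither *Hsp26* nor *Hsp27* was called (edgeR adjusted p = 0.315 and 0.219). *Hsp26* also lost its call without isoA control 2 or isoB control 1, 2 or 4, *Hsp27* without isoB control 2 or 4, and *Hsp67Bc* without isoA control 1 or isoB control 1, where its log2 fold change was -0.60 and -0.67. *CG7409* and *l(2)efl* were called in each case. The experiment, the cross, the sorting for fluorescence and the sex of the embryos all differ between these controls and cannot be told apart.

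Across the 4 conditions, scaled together, the members fell into different orders. *Hsp23* ran from 299 CPM in *sggisoB* nulls to 33.1 in *sggisoA* nulls, 24.4 in isoA controls and 20.9 in isoB controls, and the ranges of both control groups overlapped. *Hsp26* and *Hsp27* had the same order of means (299, 82.8, 81.4 and 21.8 CPM for *Hsp26*; 204, 94.9, 83.7 and 32.9 CPM for *Hsp27*), with the *sggisoA* nulls overlapping their controls and the control groups overlapping each other. *CG7409* was highest in isoA controls at 9.83 CPM, then 3.69 in *sggisoA* nulls, 2.70 in isoB controls and 1.02 in *sggisoB* nulls, with overlap only between the middle groups. *l(2)efl* (126, 111, 72.9 and 64.5 CPM) followed the experiment, being higher in both isoA groups than in both isoB groups. *Hsp67Bc* (78.4 CPM in isoA controls, 58.6 in *sggisoB* nulls, 57.8 in *sggisoA* nulls and 47.6 in isoB controls) had neighbours that overlapped except for the lowest pair. *Hsp67Ba* was highest in *sggisoB* nulls at 1.39 CPM, and the other groups, at 0.706 in *sggisoA* nulls, 0.646 in isoB controls and 0.427 in isoA controls, overlapped.

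The controls showed how unequal the members are in embryos without a lesion. The SD of log2 CPM over the isoA controls was 1.51 for *Hsp26* and 0.872 for *Hsp27*, beside a median of 0.238 over all genes, and 1.27% of genes had a larger SD than *Hsp26*. In the isoB controls these SDs were 1.04 and 0.675, beside a median of 0.150, and 1.08% of genes exceeded *Hsp26*. *Hsp26* and *Hsp27* ranked the isoA controls in the same way, control 1 lowest and control 3 highest, while *Hsp23* ranked them in reverse.

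**Figure D5:**
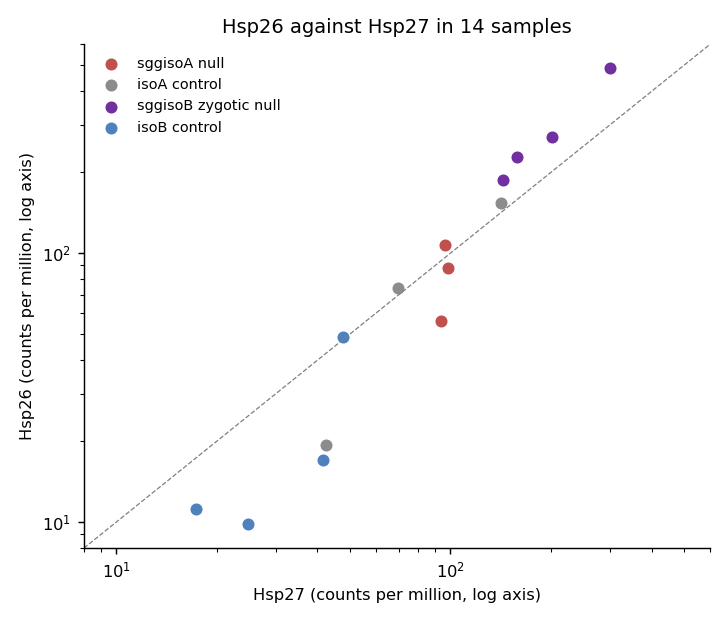
Hsp26 (y axis) against Hsp27 (x axis) in CPM on log axes, with a point for each of the 14 samples and the dashed line marking equal values. The sggisoB zygotic nulls lie above the line at the upper right, the isoB controls lie close to it or below it, and the isoA controls spread from 19.4 to 154 CPM of Hsp26.

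Within the control groups, but not within the nulls, a sum of germ line and oocyte transcripts went with this spread. How many of all genes have the same order of controls was not counted. The sum of 6 such genes (*nos*, *vas*, *osk*, *pgc*, *bcd* and *aub*, none of them at 0 throughout a group) was 60.2, 169 and 267 CPM in isoA controls 1 to 3, in the order of *Hsp26* and *Hsp27*. It was 103, 44.3, 98.8 and 47.0 CPM in isoB controls 1 to 4, higher in controls 1 and 3 than in controls 2 and 4, as were *Hsp26* and *Hsp27*. In the *sggisoA* nulls the sum was 201, 185 and 187 CPM, lowest in null 2 where *Hsp26* was highest at 107 CPM. In the *sggisoB* nulls it was 49.8, 92.5, 96.9 and 49.2 CPM, lowest in nulls 1 and 4 where *Hsp26* was highest. The part of these transcripts in the levels of *Hsp26* and *Hsp27* was not tested.

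Some marker lists of other tissues also differed between nulls and controls, and others did not. In *sggisoB* the sum of 6 hemocyte genes was 407 to 455 CPM in nulls and 303 to 319 CPM in controls, with 5 of 6 higher and 0 called, and 12 of 12 muscle genes were lower with 0 called (21356 to 29630 against 27003 to 32957 CPM). The sum of 8 epidermis and cuticle genes was 2255 to 2914 CPM in these nulls and 1824 to 2318 CPM in controls, with 6 of 8 higher, *knk* called higher and *Ddc* at a log2 fold change of -0.81, not called. Of 8 neuronal genes 7 were lower with 0 called (986 to 1302 against 1199 to 1362 CPM). Of 6 glial genes 3 were higher and 3 lower with 0 called (675 to 736 against 693 to 764 CPM). Median log2 fold changes were 0.37 for hemocyte, -0.23 for muscle, 0.40 for epidermis and cuticle, -0.13 for neuronal and -0.03 for glial genes. Over all genes the median was -0.01. The sum of 6 eggshell and yolk genes in *sggisoB* was 10.5 to 13.4 against 5.51 to 7.74 CPM, with *psd* called higher. In *sggisoA* all 6 eggshell and yolk genes were higher in the nulls with 0 called, summing to 30.7 to 67.5 CPM against 11.0 to 22.7 CPM in controls. For the muscle, neuronal, glial, epidermis and cuticle, and hemocyte lists the *sggisoA* sums overlapped between nulls and controls, with 0 called in each. In the isoB controls the eggshell gene *Cp36* was at 0. The part of these differences in the members' changes was not tested.

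Of the 4 other genes of the alpha-crystallin family 2 passed the filter, and neither rose in *sggisoB*. *CG13133* was at 2.26 to 3.40 CPM in the *sggisoB* nulls and 4.28 to 5.48 CPM in their controls, without overlap, and was called lower (log2 -0.78 ± 0.18 SE, edgeR adjusted p = 0.0270). The call was lost without null 2 or 3 or control 2, 3 or 4. In *sggisoA* its log2 fold change was -0.00 ± 0.25 SE. *CG14207* was at 271 to 291 CPM in *sggisoB* nulls and 308 to 361 CPM in controls, without overlap and without a call (log2 -0.25 ± 0.07 SE, edgeR adjusted p = 0.0507). *CG4461*, inside the 67B cluster between *Hsp22* and *Hsp26*, had 2, 5, 1 and 7 counts in *sggisoB* nulls against 0, 0, 1 and 1 in controls. It was below the filter, and in the fit without the filter it was not called (edgeR adjusted p = 0.117). *CG43851* had 0 counts throughout.

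The wider heat shock machinery was followed through a list of partner genes. Of 16 such genes, 15 were tested in *sggisoB* and 10 were called, all higher. Over all 10693 genes tested 0.982% were called higher, a share that the *Hsp70* genes among the 10 cannot be set against, as given below. The genes called were *Hsf* (log2 0.96), the Hsp70 relative *Hsp68* (6.39), the Hsp70 genes *Hsp70Bb* (4.47), *Hsp70Bbb* (4.79), *Hsp70Bc* (5.11), *Hsp70Aa* and *Hsp70Ba*, *Hsp83* (1.40), the Hsp40 gene *DnaJ-1* (1.48) and the co-chaperone *Stip1* (0.73). *Hsp70Aa* had 46, 44, 23 and 90 counts in the nulls and *Hsp70Ba* 154, 101, 45 and 205, with 1 count in all 4 controls together for each, so that no fold is given. *Hsp70Bb* was at 2, 0, 11 and 36 counts in the controls, and its log2 fold change was 5.87 without control 4. *Hsp70Bbb* was at 3, 4, 2 and 2 counts in the controls and *Hsp70Bc* at 12, 2, 8 and 12. These *Hsp70* genes passed the filter on low counts only through the nulls, so that a call of them could only be higher. Their calls are thus no support, and the partners called apart from them were *Hsf*, *Hsp68*, *Hsp83*, *DnaJ-1* and *Stip1*. The *Hsp70* copies are nearly identical in sequence. How reads matching more than 1 copy were counted was not checked, so the counts of single copies are uncertain. *Stip1* fell just short of the fold threshold without control 1 (log2 0.67). The partner of *Hsp67Bc*, *stv* (Starvin), was not called (log2 0.29), nor was the autophagy receptor *ref(2)P* (0.20) or the heat-inducible nuclear transcript *lncRNA:Hsromega* (-0.30). Their edgeR adjusted p were 0.159, 0.356 and 0.273. The constitutive chaperones *Hsc70-4* (0.53) and *Hsc70Cb* (0.52) missed only the fold threshold (edgeR adjusted p = 0.00156 and 0.00358). Their nulls were all above their controls. In *sggisoA* 10 of the 16 were tested and 0 were called by edgeR, with 2 at an unadjusted p under 0.05, *Hsp68* (log2 -1.44) and *lncRNA:Hsromega* (-0.41). The interaction term, which had no fold threshold, passed for 9 of the 15 partners tested in it, beside 2.54% of 11021 genes. All 9 had the larger effect in *sggisoB*, the smallest difference being 0.63 on the log2 scale for *Hsc70-4*. Among the 9 were *Hsp70Bb* and *Hsp70Bc*, which were low outside the *sggisoB* nulls. With single samples left out *Hsp70Bb* was lost without isoB control 1 or 3, any *sggisoA* null or isoA control 1. *Hsc70Cb* was lost without isoB control 2, 3 or 4 or *sggisoA* null 2 or 3, *Hsc70-4* without *sggisoA* null 2 and *Stip1* without *sggisoA* null 3.

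The genes with the most similar profile to each member were found from the root mean square (RMS) difference of centred log2 CPM over the 14 samples, among 11014 genes. *Hsp23* was closest to *Hsp70Aa* (RMS 0.44) and *Hph* (0.50), while its nearest member, *Hsp27*, was at 1.02. Outside the *sggisoB* nulls *Hsp70Aa* had 0 to 3 counts per sample. There its log2 CPM was set mainly by the prior count of 2, and its distance to *Hsp23* depends on this floor. *Hsp26* was closest to *Hph* (1.12) and *CG14736* (1.15) outside the family, but *Hsp27* was nearer still at 0.67. *Hsp27* was closest to *Hsp83* (0.63) and then *Hsp26*, and outside the family *CG5290* (0.69) came next. The profiles of *Hsp67Bc* (*CG31915*, 0.15, and *Vps36*, 0.16) and *l(2)efl* (*CG7900*, 0.12, and *Mpcp1*, 0.15) had many near genes, as 65.7% and 42.2% of genes lay within an RMS of 0.5. *Hsp67Ba* was closest to *Cap-D2* (0.44) and *Spn42Db* (0.46), and *CG7409* to *PH4alphaSG2* (0.46) and *CG34437* (0.49). With only 2 to 31 counts of *Hsp67Ba* per sample, its distances also depend on the prior count. These likenesses rest on the same 14 libraries and carry the differences between the experiments.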

How the data were processed

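Poly(A) RNA of 14 pooled embryo samples was sequenced from a single end with a directional kit. Per the labels and the study's methods, the authors aligned reads with TopHat2 (2.1.1) and Bowtie2 (2.3.4.0) and counted them on exons per FlyBase Release 6 gene with Rsubread defaults. The deposited values used here are raw counts without normalization for 17493 genes. The authors' tables also hold log2 CPM and their own limma-voom fold changes and p-values, which were not used. Genes were named by FlyBase identifier, 17362 of which matched the Ensembl annotation.

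With R 4.3.3 and edgeR 4.0.16, each experiment was filtered by filterByExpr (minimum count 10, minimum total 15), scaled by TMM and tested by quasi-likelihood. DESeq2 1.42.0, limma-voom (limma 3.58.1), RLE scaling, no filter, single samples left out, a replicate block and a fit of all 14 samples were the alternatives. Replicates differed beyond sampling noise in all 18 pairs. Log2 CPM used a prior count of 2. All 8 members were described, and the members, the lists and the rule for the nearest profiles were chosen with earlier results of these data known.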

Additional observations from a re-analysis of the deposited data

Results flagged for a closer look

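The effect of *sggisoB* on *Hsp23*, *Hsp26* and *Hsp27* differed from the effect of *sggisoA* by 3.39, 3.74 and 2.44 on the log2 scale, by the interaction term given above. *Hsp67Ba* in the *sggisoB* zygotic nulls had a highest sample, null 1, whose gap to the next sample was 0.837 of the whole range of the group. Of 14 groups of 4 samples looked at in this way 1 stood apart, and chance alone sets apart about 1 group in 20.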

How the results depend on the processing

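*Hsp23*, *Hsp26* and *Hsp27* were called in *sggisoB* under every alternative tried. The members called there, 4 in the main analysis, ranged from 3 to 5 with single samples left out. The count over all genes, 488, ranged from 202 to 676. In *sggisoA* the 101 genes called became 368 with DESeq2, 295 with all 14 samples in the fit and 6 to 183 with single samples left out, and the members called 0 to 1. Over these omissions the log2 fold change ran from -0.45 to 0.87 for *Hsp26* and from -0.15 to 0.79 for *Hsp27*. For the difference between experiments the 280 genes that passed became 852 with DESeq2 and 103 to 579 with samples left out, and the members that passed 1 to 4 (main 3). Over the same omissions the difference changed sign for *CG7409* (-0.15 to 0.19), *l(2)efl* (-0.067 to 0.161) and *Hsp67Ba* (-0.22 to 0.69). *Hsp26* missed there with limma-voom (adjusted p = 0.0558) and *Hsp67Bc* passed with DESeq2 (adjusted p = 0.0125). Between the controls 3 to 5 members were called. The cause of these changes was not tested. Samples of the same number correlated in their deviations at -0.20 to -0.10 in *sggisoA* and -0.19 to 0.19 in *sggisoB*. These values show no clear pairing by number, but with so few samples they cannot exclude it. With the replicate block 43 genes and 0 members were called in *sggisoA*, and 170 genes and 3 members in *sggisoB*, *CG7409* being lost.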
